A study of Mus musculus with 12 samples.

Results

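The creatine kinase and adenylate kinase systems of the mouse left ventricle were followed through 9 genes: the creatine kinases Ckm, Ckb, Ckmt2 and Ckmt1, the creatine transporter Slc6a8, the creatine-synthesis enzymes Gatm and Gamt, and the adenylate kinases Ak1 and Ak4. The members were the rows of the raw count table whose Ensembl identifier carried one of these symbols in GENCODE M21, and all 9, each a protein-coding gene, were found among 26921 genes. Of these, 8 passed the filter on low values and were tested among 11225 genes, whereas Ckmt1 was too low to be tested. RNA was sequenced from left ventricles of 16-week-old mice, with 6 libraries per genotype. Both genotypes carried floxed Gch1 alleles, Gch1 being the gene for the first enzyme of tetrahydrobiopterin synthesis. WT mice were littermates without Cre, and cmGch1 KO mice had in addition Cre recombinase under the α-myosin heavy chain promoter, which is active in cardiomyocytes. Other cells of the ventricle therefore kept Gch1 in the cmGch1 KO mice, and mice with Cre but without floxed alleles were not analysed here.

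Creatine kinase moves a phosphate between ATP and creatine. In the heart, the mitochondrial enzyme makes phosphocreatine beside the adenine nucleotide translocase, and the cytosolic enzyme uses it to restore ATP at the myofibrils and the calcium pump. Cardiomyocytes make little creatine themselves and take it up from the blood. Adenylate kinase makes ATP and AMP from ADP, so that AMP signals a low energy state to AMPK, the AMP-activated protein kinase.

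Gch1 was read first as a check of the genotype. It lay between 9.32 and 12.2 cpm (counts scaled to the library total, with the TMM factors of edgeR) in WT and between 3.94 and 6.35 cpm in cmGch1 KO. The groups did not overlap, and the log2 fold change was −0.96 ± 0.11 (SE; edgeR quasi-likelihood test, FDR = 6.88e-04). Totals were 22356463 to 37917806 counts per WT library and 19921398 to 35480715 counts per cmGch1 KO library. The cmGch1 KO replicates 2 and 3 had Xist at 87.1 and 99.6 cpm and no counts of 4 Y-linked genes, whereas Xist was at most 0.235 cpm in the other 10 libraries. Mitochondrially encoded genes took 14.9% and 16.1% of counts in those 2 libraries and 18.3% to 22.9% in the others. For the members and their ratios, each call that changed when these 2 libraries were left out is given both ways. As a view of the tissue, the 7 cardiomyocyte markers summed to 56095 to 60019 cpm in WT and 50848 to 56394 cpm in cmGch1 KO. The 3 atrial markers varied widely, with sums of 7.66 to 284 cpm in WT and 45.3 to 188 cpm in cmGch1 KO. The part of atrial tissue in the levels of the members was not tested.

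The sequences ahead of the transcription start are shown for the 3 tested creatine kinase genes, on which the comparison of isoforms turned. RefSeq promoters were given for 8 of the 9 members, Slc6a8 having no entry. The 250 bases before the start are printed 5′ to 3′ on the strand of the gene, from GRCm38.p6, at chr7:19410844-19411093 (plus strand) for Ckm, chr12:111672339-111672588 (minus strand) for Ckb and chr13:91876886-91877135 (minus strand) for Ckmt2. Capitals mark matches, on either strand, to the E-box (CANNTG), the MCAT element (CATTCC), the ERR half-site (AAGGTCA), the TATA box (TATAAA) and the MEF2 consensus.
Ckm: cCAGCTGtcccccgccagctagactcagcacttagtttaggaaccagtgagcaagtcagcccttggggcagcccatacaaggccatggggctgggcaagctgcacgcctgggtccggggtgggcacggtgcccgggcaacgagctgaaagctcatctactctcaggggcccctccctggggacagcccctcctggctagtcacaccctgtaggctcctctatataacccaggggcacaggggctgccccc
Ckb: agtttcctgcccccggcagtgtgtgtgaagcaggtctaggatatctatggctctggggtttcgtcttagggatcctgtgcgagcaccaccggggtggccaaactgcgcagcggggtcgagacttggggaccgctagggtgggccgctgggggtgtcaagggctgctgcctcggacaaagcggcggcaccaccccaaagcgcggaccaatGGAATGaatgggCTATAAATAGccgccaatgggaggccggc
Ckmt2: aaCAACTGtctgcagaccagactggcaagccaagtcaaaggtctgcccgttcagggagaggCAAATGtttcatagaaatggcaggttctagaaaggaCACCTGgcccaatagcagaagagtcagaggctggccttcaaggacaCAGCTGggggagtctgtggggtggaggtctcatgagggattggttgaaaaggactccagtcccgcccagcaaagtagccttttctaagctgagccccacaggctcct
Ckm held 1 E-box and Ckmt2 held 4, and Ckb held none. In Ckb an MCAT element lay with its first base at −41, and a TATA box lay within a MEF2 match, so the capitals there mark overlapping motifs. Among all 32851 promoters of this length, 66.2% held an E-box, 12.6% an MCAT element, 4.08% an ERR half-site, 12.4% a TATA box and 0.508% a MEF2 match. A match is a string of letters and says nothing about whether a factor was bound.

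Levels were compared between genes only per length, as mean cpm per kb of the principal transcript in WT. Ckmt2, the mitochondrial creatine kinase of striated muscle, was highest at 1078 ± 85.2 (SD, n = 6). Ckm, the cytosolic muscle-type enzyme, followed at 588 ± 75.0, and Ak1, the cytosolic adenylate kinase, at 319 ± 23.0. The transporter Slc6a8 stood at 77.3 ± 5.24 cpm per kb. Next came Ckb, the brain-type cytosolic creatine kinase, at 32.0 ± 2.09, and Ak4, an adenylate kinase of the mitochondrial matrix, at 12.2 ± 1.21. The synthesis enzymes were low, with Gamt, which methylates guanidinoacetate to creatine, at 3.82 ± 0.582 and Gatm, which makes guanidinoacetate, at 1.26 ± 0.161 cpm per kb. Ckmt1, the ubiquitous mitochondrial creatine kinase, was last at 0.0772 ± 0.0948. No neighbours in this order overlapped between libraries of WT, and the order was the same in cmGch1 KO. Set against 11190 genes ranked per kb of exonic union, Ckmt2 was 35th, Ckm 63rd and Ak1 172nd, while Gatm was 10134th.

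The order at the top depended on the length. The principal Ckm transcript has 2742 bases, of which 1143 are coding, and the Ckmt2 transcript has 1486, of which 1257 are coding. Per kb of coding length, a scale chosen after seeing the data, Ckm was at 1412 ± 180 (SD), Ckmt2 at 1274 ± 101 and Ak1 at 1144 ± 82.4, and the ranges of these neighbours overlapped. Ak4 was then above Ckb, at 76.4 ± 7.54 against 41.3 ± 2.69 cpm per kb of coding length.

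**Figure D1:**
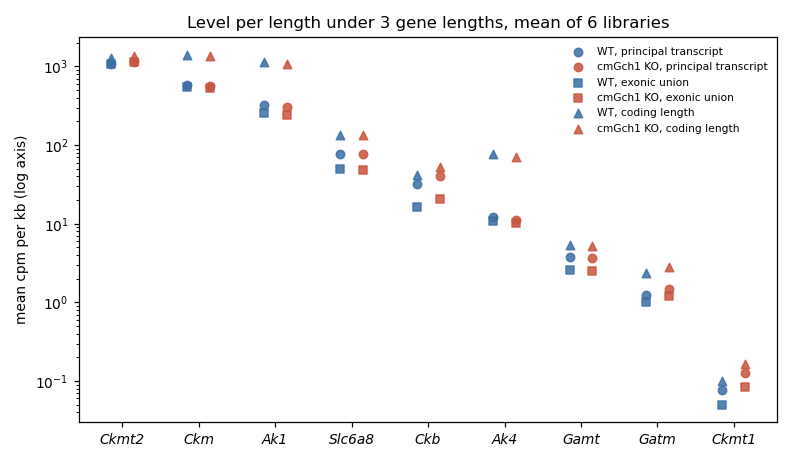
Mean cpm per kb of the 9 genes in WT (blue) and cmGch1 KO (red), 6 libraries each, on a log axis. Circles use the principal transcript, squares the exonic union and triangles the coding length; the transcripts span from 0.0772 (Ckmt1) to 1078 (Ckmt2) cpm per kb of principal transcript in WT.

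Between genotypes, Ckb was the 1 member called higher, by 1.27-fold (95% interval 1.15 to 1.40), and no member was called lower. Over all tested genes, 0.677% were called higher and 0.445% were called lower at an FDR under 0.05. Of the 8 tested members, 3 had a positive and 5 a negative log2 fold change, with a median of −0.03 against −0.01 over all tested genes. In a left ventricle sequenced whole, fewer cells of a type and less RNA per cell cannot be told apart.

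Ckb (ENSMUSG00000001270, chr12:111669361-111672338, minus strand, GRCm38) lay between 43.9 and 52.2 cpm in WT, with a median of 47.2. In cmGch1 KO it lay between 55.1 and 65.9 cpm, with a median of 60.8. Every cmGch1 KO library was above every WT library, and the highest and the lowest of the cmGch1 KO values were those of replicates 2 and 6. Means were 47.2 ± 3.07 and 60.0 ± 3.80 cpm (SD, n = 6 each), and the log2 fold change was 0.35 ± 0.07 (SE), with an FDR of 0.0164. By unadjusted p, Ckb was 71st of the tested genes. Separation of the groups without overlap occurred in 1.87% of all tested genes, and among the members only in Ckb. The exact permutation test over 924 assignments of genotype gave p = 0.00216 (two-sided), the smallest it can give.

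Size and call of the Ckb difference behaved differently under other settings. Its log2 fold change stayed between 0.31 and 0.42 in 23 alternatives. Without cmGch1 KO replicates 2 and 3 it was 0.34, with an FDR of 0.0761, and a covariate for sex-linked expression gave 0.34, with an FDR of 0.0592. Leaving out WT replicate 3 gave an FDR of 0.0533. A new fit of 24643 genes without the filter gave a log2 fold change of 0.33, with an FDR of 0.0549.

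Markers of other cell types are given beside the Ckb result, and of the lists named here Acta2 was the 1 gene called. All 4 tested macrophage markers of 5 were higher at an unadjusted p under 0.05, none passed the FDR threshold, and the list summed to 79.1 to 99.6 cpm in WT and 98.0 to 121 cpm in cmGch1 KO. Of 4 smooth muscle markers, Acta2, the smooth muscle α-actin, rose from 126 ± 14.3 to 200 ± 32.0 cpm (SD; log2 fold change 0.66, FDR = 0.00672), while Myh11, Tagln and Cnn1 had negative fold changes that did not pass. The smooth muscle list summed to 200 to 263 cpm in WT and 235 to 348 cpm in cmGch1 KO. Its highest sums were those of cmGch1 KO replicates 2 and 3, at 348 and 309 cpm. The Acta2 call was not examined without these 2 libraries. Among the cardiomyocyte markers, 6 of 7 had negative fold changes and none was called. The nerve and glia markers summed to 5.60 to 7.88 cpm in WT and 5.88 to 8.93 cpm in cmGch1 KO, so their ranges overlapped. With each genotype mean subtracted, Ckb had a Pearson r of 0.66 with the nerve and glia sum and 0.52 with the smooth muscle sum. With the macrophage sum r was 0.40 and with the cardiomyocyte sum −0.53 (n = 12 libraries, log2 scale). For the other lists r was 0.49 (adipocyte), 0.35 (atrial), 0.30 (skeletal muscle), 0.15 (red blood cell) and 0.06 (fibroblast). It was −0.42 for pericyte and −0.37 for endothelial markers. The part of these cell types in the Ckb result was not tested. A processed pseudogene, Gm12892, matched Ckb at 98.9% identity over 373 bases and had at most 7 counts in a library.

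**Figure D2:**
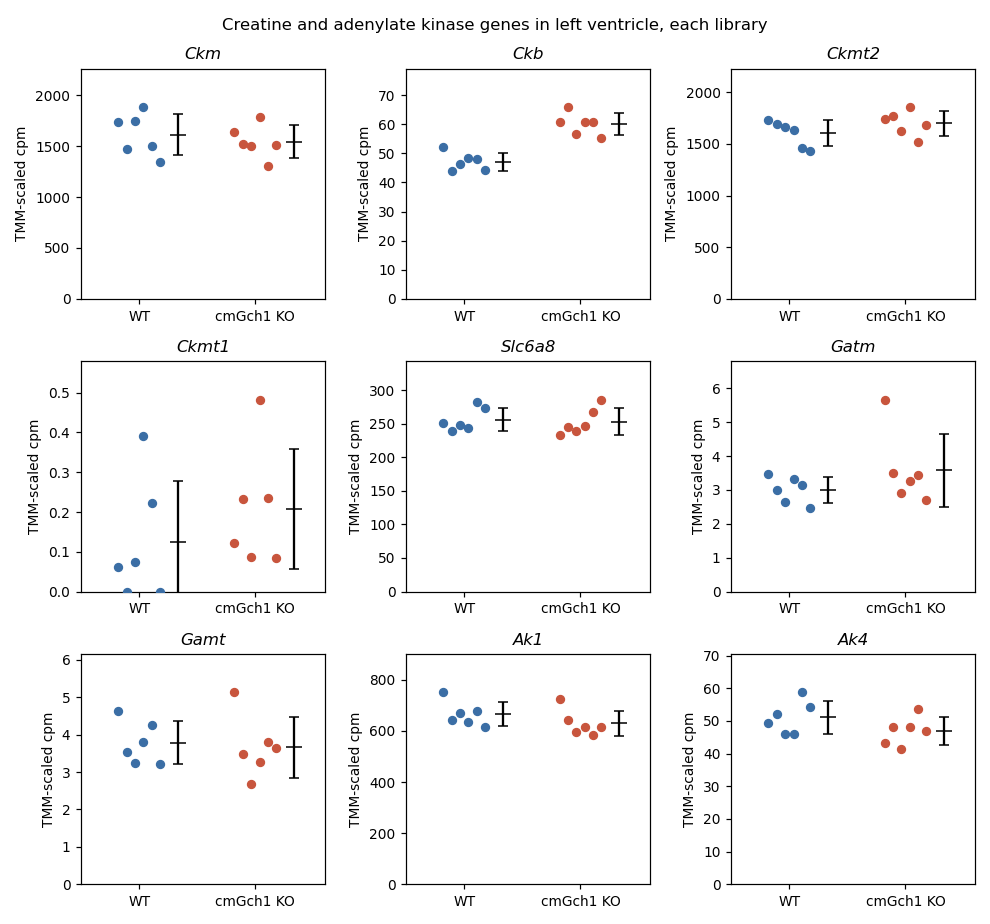
TMM-scaled cpm of the 9 genes in each of 6 WT (blue) and 6 cmGch1 KO (red) libraries, in order of replicate number; black marks are the mean with SD and each axis starts at 0. The Ckb points of cmGch1 KO (55.1 to 65.9) are all above those of WT (43.9 to 52.2), and the genotypes overlap for each of the other 8 genes.

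Ckm (ENSMUSG00000030399, chr7:19404776-19422841, plus strand) ranged from 1341 to 1884 cpm in WT, with a median of 1621. In cmGch1 KO the range was 1303 to 1790 cpm and the median 1516. The ranges lay over each other, with 5 of the 6 cmGch1 KO libraries inside the WT range. The log2 fold change was −0.06 ± 0.10 (SE; FDR = 0.897), with a 95% interval from −0.27 to 0.14. An antisense transcript, A930016O22Rik, shares 451 exonic bases with Ckm, and had at most 53 counts against at least 29241 for Ckm. Skeletal muscle, itself rich in Ckm, was looked for through 6 markers of its fast fibres. None was high enough to be tested, Myh4 was at 0 in every library, and their sum was 2.19 to 3.76 cpm in WT and 3.27 to 7.57 cpm in cmGch1 KO. Their part in the Ckm level was not tested.

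Ckmt2 (ENSMUSG00000021622, chr13:91853387-91876885, minus strand) had 1427 to 1735 cpm in WT, with a median of 1649. It had 1514 to 1857 cpm in cmGch1 KO, with a median of 1713. The genotypes overlapped, although 3 of the 6 cmGch1 KO libraries were above all WT libraries. With a log2 fold change of 0.08 ± 0.07 (SE; FDR = 0.761) and an interval of −0.07 to 0.24, no difference was called. The other mitochondrial isoform, Ckmt1 (ENSMUSG00000000308, chr2:121357714-121363737, plus strand), had 0 to 14 counts per WT library and 2 to 16 per cmGch1 KO library. It was at 0 in WT replicates 2 and 6, where the limit set by 3 counts, for counting error only, was 0.0874 and 0.138 cpm. Its cpm was not separable between genotypes at this depth (two-sided exact permutation test, p = 0.385).

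The balance of the isoforms within each library was compared as log2 ratios of counts, which need no scaling between libraries. The ratio of Ckb to Ckm was −5.28 to −4.92 in WT and −4.88 to −4.42 in cmGch1 KO, without overlap. Its mean rose from −5.09 ± 0.14 to −4.68 ± 0.17 (SD, n = 6), a difference of 0.41 (exact permutation test, two-sided, p = 0.00216, adjusted p = 0.00649 over 3 ratios). This difference stayed between 0.36 and 0.45 in 14 of 14 alternatives. Without cmGch1 KO replicates 2 and 3 it was 0.38 (p = 0.00476 by the exact permutation test). Groups that do not overlap stay apart when libraries are left out, so the small p of those settings was fixed in advance. A covariate for sex-linked expression was not applied to the ratio. The ratio compares Ckb with Ckm directly and says nothing of which level moved.

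For Ckmt2 to Ckm, the log2 ratio was −0.21 to 0.20 in WT and 0.05 to 0.22 in cmGch1 KO. Means of −0.00 ± 0.14 and 0.14 ± 0.07 (SD, n = 6) differed by 0.14 (exact permutation test, two-sided, p = 0.0433, adjusted p = 0.0649). The ranges overlapped, and the unadjusted p was above 0.05 in 10 of 14 alternatives, among them the one without cmGch1 KO replicates 2 and 3 (0.13, p = 0.114 by the exact permutation test). Ckb made up a small part of creatine kinase expression: of the summed level per kb of principal transcript, it held 1.89% ± 0.141 in WT and 2.35% ± 0.214 in cmGch1 KO (SD, n = 6). Ckmt2 held 63.5% ± 2.16 and 65.4% ± 0.904, and Ckm 34.6% ± 2.16 and 32.2% ± 1.07. Per kb of exonic union, the share of Ckb was 0.992% ± 0.0746 in WT and 1.23% ± 0.113 in cmGch1 KO (SD, n = 6), and that of Ckm 33.5% and 31.3%. Per kb of coding length, the scale chosen after seeing the data, the share of Ckb was 1.52% and 1.92%, and that of Ckm 51.6% and 49.0%.

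**Figure D3:**
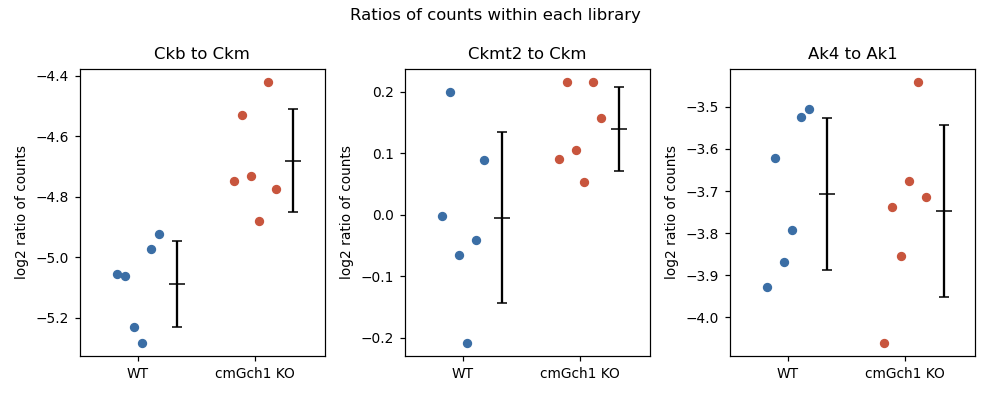
Log2 ratios of counts within each library for Ckb to Ckm, Ckmt2 to Ckm and Ak4 to Ak1, in 6 WT (blue) and 6 cmGch1 KO (red) libraries, with the mean and SD in black; each panel has its own axis. Ckb to Ckm separates the genotypes (at most −4.92 in WT, at least −4.88 in cmGch1 KO), and the other ratios overlap.

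Uptake and synthesis of creatine were represented by 3 genes, none of which was called. Slc6a8 (ENSMUSG00000019558, chrX:73673150-73682502, plus strand) had 240 to 282 cpm in WT, with a median of 249, and 234 to 286 cpm in cmGch1 KO, with a median of 246. The ranges nearly coincided, and replicates 2 and 3 of cmGch1 KO, at 245 and 239 cpm, lay among the other cmGch1 KO libraries for this X-linked gene. Its log2 fold change was −0.02 ± 0.07 (SE; FDR = 0.969; interval −0.16 to 0.13).

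Gatm (ENSMUSG00000027199, chr2:122594467-122611303, minus strand) was close to the filter, with 2.48 to 3.46 cpm in WT (median 3.07). In cmGch1 KO it lay between 2.72 and 5.67 cpm (median 3.35). One library, cmGch1 KO replicate 1, stood apart at 5.67 cpm, and the others reached at most 3.49 cpm. The log2 fold change of 0.24 ± 0.17 (SE; FDR = 0.689) had an interval of −0.13 to 0.61, and it was 0.06 without that library.

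Gamt (ENSMUSG00000020150, chr10:80258151-80261012, minus strand) had 3.21 to 4.64 cpm in WT (median 3.66) and 2.68 to 5.14 cpm in cmGch1 KO (median 3.56). Its highest value was again that of cmGch1 KO replicate 1. The genotypes overlapped, with a log2 fold change of −0.05 ± 0.15 (SE; FDR = 0.957; interval −0.37 to 0.28). Counts for both synthesis enzymes were 54 to 149 per library, which left wider intervals than for the abundant members.

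Neither adenylate kinase was called. Ak1 (ENSMUSG00000026817, chr2:32621758-32635058, plus strand) had 615 to 752 cpm in WT (median 656) and 584 to 724 cpm in cmGch1 KO (median 615). In both genotypes replicate 1 was the highest, and 5 of 6 cmGch1 KO libraries were below the WT median. The log2 fold change was −0.08 ± 0.07 (SE; FDR = 0.763; interval −0.23 to 0.07).

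Ak4 (ENSMUSG00000028527, chr4:101419277-101466995, plus strand) had 45.9 to 58.8 cpm in WT (median 50.8) and 41.3 to 53.8 cpm in cmGch1 KO (median 47.5). Again 5 of 6 cmGch1 KO libraries were below the WT median, and 4 were inside the WT range. Its log2 fold change of −0.12 ± 0.08 (SE; FDR = 0.655; interval −0.30 to 0.05) did not pass. The value is uncertain to the extent that reads were split with the pseudogene Ak3l2-ps, which matches Ak4 at 99.6% identity over 672 bases and had at most 54 counts. The log2 ratio of Ak4 to Ak1 was −3.71 ± 0.18 in WT and −3.75 ± 0.21 in cmGch1 KO (SD, n = 6; exact permutation test, two-sided, p = 0.721, also after adjustment).

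**Figure D4:**
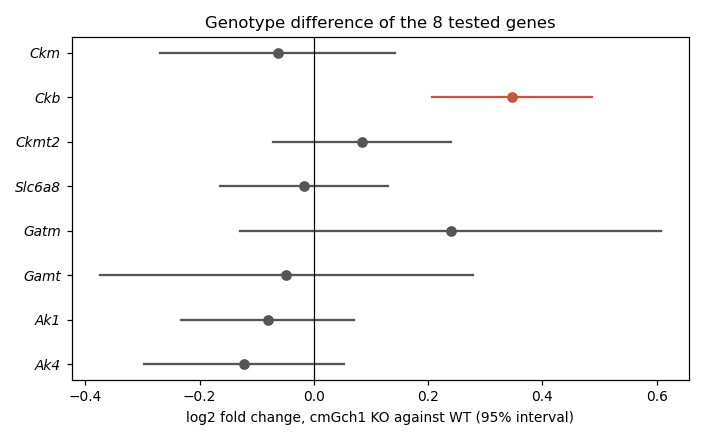
Genotype difference as the log2 fold change (cmGch1 KO against WT, edgeR, 6 libraries each) for the 8 tested genes, with 95% intervals that are not adjusted for the number of genes; red marks an FDR under 0.05. Ckb, at 0.35 (0.21 to 0.49), is the gene called, and each of the other 7 intervals includes 0.

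Genes around the members were taken from 8 lists, and no gene of any list passed the FDR threshold. Unadjusted p under 0.05 was reached by 4.51% of all tested genes in the lower and by 7.01% in the higher direction, which is the background for the counts that follow.

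Among the other adenylate kinases, 3 of 7 were tested, and 1 had an unadjusted p under 0.05, in the higher direction. Ak3, a GTP-dependent enzyme of the matrix, and Ak6 had log2 fold changes of −0.09 and −0.23. The median of the list was −0.09.

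In AMP and adenosine metabolism, 13 of 15 genes were tested, 3 had an unadjusted p under 0.05 in the lower and 2 in the higher direction, and the median log2 fold change was −0.00. Adk, which phosphorylates adenosine to AMP, was at 159 ± 6.62 cpm in WT and 136 ± 9.43 in cmGch1 KO (log2 fold change −0.22, FDR = 0.116). Nt5e, the ectoenzyme that makes adenosine from extracellular AMP, was at 20.2 ± 4.08 and 25.9 ± 2.77 cpm (0.37, FDR = 0.201). For the nucleotidases Nt5c and Nt5c1a the log2 fold changes were 0.43 (FDR = 0.262) and −0.32 (FDR = 0.345).

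AMPK subunits and upstream kinases were all tested, and 2 of 11 had an unadjusted p under 0.05, both in the higher direction. These were Camkk2, a calcium-dependent kinase that phosphorylates AMPK (13.2 ± 1.22 and 15.9 ± 1.46 cpm, log2 fold change 0.27, FDR = 0.185), and Prkag3, a regulatory γ subunit (3.95 ± 0.702 and 5.02 ± 0.971 cpm, 0.34, FDR = 0.390). Prkaa1, a catalytic subunit, and Prkab2, a scaffold subunit, had log2 fold changes of 0.13 and −0.18. The median of the list was 0.03.

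Transport of ADP, ATP and phosphate over the mitochondrial membranes had 9 of 10 genes tested and a median of −0.03. Slc25a25, a calcium-dependent ATP-Mg/phosphate carrier, was at 11.4 ± 1.74 cpm in WT and 8.83 ± 2.09 in cmGch1 KO (log2 fold change −0.36, FDR = 0.406), and it was the 1 gene with an unadjusted p under 0.05. Its relative Slc25a23 was at 0.18. Slc25a4, the adenine nucleotide translocase of heart, and Slc25a3, the phosphate carrier, had −0.14 and −0.11. Of 11 other nucleoside and nucleotide kinases 8 were tested, none with an unadjusted p under 0.05 and with a median of −0.02. The smallest p belonged to Nme1, a nucleoside diphosphate kinase (log2 fold change 0.21, FDR = 0.480), followed by Nme4 (−0.35, FDR = 0.563), its mitochondrial counterpart, by Nme6 (−0.12) and by Dtymk, the thymidylate kinase (−0.07).

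On the supply side of creatine synthesis, 9 of 16 genes for amino acids and methyl groups were tested, with a median log2 fold change of −0.05. Of these, 1 had an unadjusted p under 0.05 in the lower and 1 in the higher direction. Oat, ornithine aminotransferase, was at 196 to 230 cpm in WT and 172 to 192 cpm in cmGch1 KO. These ranges did not overlap, but with a log2 fold change of −0.20 and an FDR of 0.121 it was not called. Asl, argininosuccinate lyase, which forms arginine, was at 4.92 ± 0.526 and 6.11 ± 0.570 cpm (0.31, FDR = 0.207). Mat2a and Mat2b, the subunits of methionine adenosyltransferase, had −0.24 and −0.07.

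Of 6 further carriers of creatine, guanidinoacetate, taurine and betaine, 4 were tested. An unadjusted p under 0.05 was reached by 1 in the lower and 1 in the higher direction. Slc16a12, which carries creatine out of cells, was at 2.79 to 3.68 cpm in WT and 2.34 to 5.07 cpm in cmGch1 KO (log2 fold change 0.42, FDR = 0.302). Slc22a5, the carnitine transporter, was at −0.24 (FDR = 0.311), Slc6a6, the taurine transporter, at 0.21 and Slc16a9 at −0.08. The median was 0.07. Among the ATP users of myofibril and sarcoplasmic reticulum, 5 of 5 were tested with a median of −0.17 and no unadjusted p under 0.05. Here Atp2a2, the calcium pump SERCA2, and Myh6, the α-myosin heavy chain, both had −0.18, and Myh7, the β-myosin heavy chain, 0.13.

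**Figure D5:**
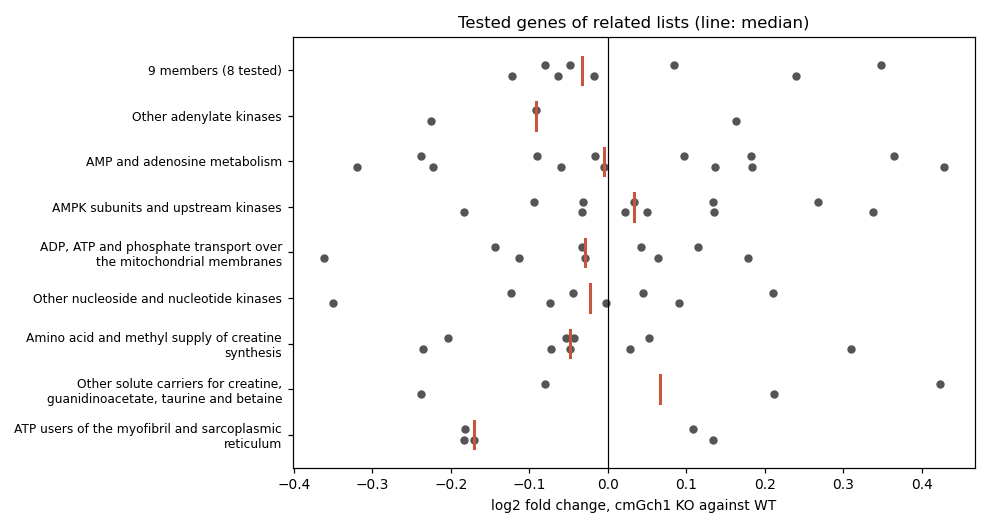
Log2 fold change, cmGch1 KO against WT, for each tested gene of the 9 members and of 8 related lists; each grey point is a gene and the red line is the median of its list. List medians lie between −0.17 and 0.07, and the member farthest to the right is Ckb at 0.35.

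Variation among the libraries of a genotype was then compared between members, as log2 cpm after subtracting each genotype mean (n = 12 libraries, which share depth and scaling factor across genes). Of 28 pairs, 19 correlated positively and 9 negatively, and none had an adjusted p under 0.05 by permutation within genotype. The highest was Gatm with Gamt, enzymes of consecutive steps (Pearson r = 0.84, permutation p = 0.00344, adjusted p = 0.0909; Spearman rho = 0.78, permutation p = 0.00634, adjusted p = 0.0994). It was 0.90 without cmGch1 KO replicates 1 and 6. Ckm with Ckmt2 came next (Pearson r = 0.77, permutation p = 0.00770, adjusted p = 0.0909; Spearman rho = 0.64, permutation p = 0.0425, adjusted p = 0.261), and r was 0.79 without WT replicate 4 and cmGch1 KO replicate 4.

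On the same scale, the gene outside the members that varied most like a member was Tsr2 for Ckb (Pearson r = 0.91), Lrg1 for Ckmt2 (0.96), Prkar1a for Slc6a8 (0.93), Anxa7 for Gatm (0.96), Dhrs1 for Gamt (0.93), Macrod1 for Ak1 (0.95) and Anks6 for Ak4 (0.95). Each is the highest r among all tested genes outside the members, over 12 libraries, and is given as a description only.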

How the data were processed

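Left ventricular RNA from 6 WT and 6 cmGch1 KO mice was analysed, grouped by the labels, each library coming from a single animal according to the study's methods. The authors deposited raw counts per Ensembl gene (HISAT2, SAMtools and GRCm38 per the labels, featureCounts per the methods), and normalized values on a log2-like scale whose tool is not given in the sources used here. The libraries were stranded, but the strand setting of the counting is not given in the sources used here.

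A gene was tested where cpm exceeded 3 in 6 or more libraries, with edgeR 4.0.16 in R 4.3.3 (TMM, quasi-likelihood, no covariates), adjusted by the Benjamini-Hochberg method over all tested genes (FDR threshold 0.05). Single values were tested by exact permutation over libraries, and correlations with 100000 permutations. DESeq2 1.42.0, limma 3.58.1 on the deposited log2 values, other filters, scalings and covariates, and each library left out in turn were alternatives. Intervals are 95%. The tests were checked on simulated counts.

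Members and lists were chosen with earlier results of these data known. Named genes are Gch1, the members, the 4 tested genes of each related list with the smallest p, and for each tested member the gene most like it, some of which are not reported here. Marker genes are named only beside a result.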

Additional observations from a re-analysis of the deposited data

Results flagged for a closer look

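Of 24 groups of 6 values examined, 1 held a library far from the others. Gatm, which catalyses the first step of creatine synthesis, had 5.671 cpm in replicate 1 of cmGch1 KO and between 2.717 and 3.488 cpm in the other 5 cmGch1 KO libraries. The gap was 0.739 of the range of the group, above Dixon's critical value of 0.625. Chance flags about 1 in 20 groups. Gamt, the enzyme of the next step, was also highest in that library, at 5.14 cpm.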

How the results depend on the processing

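The ratio of Ckb to Ckm kept its direction under all 14 alternatives run for it, with a difference of 0.36 to 0.45. Its p-value stayed under the threshold, which was fixed in advance where libraries were left out, as the groups do not overlap. The count of members called higher fell from 1 to 0 without a filter, with sex-linked expression as a covariate and without the 2 cmGch1 KO libraries with Xist reads, and it was 0 to 1 when single libraries were left out (0 without WT replicate 3). Genes called lower, 50 in all, were 155 with the Wald test of DESeq2, 25 with the sex-linked covariate, 18 without the 2 libraries with Xist reads, and 30 to 97 with 1 library left out. Genes called higher, 76 in all, were 116 with scaling by library size alone, 218 with DESeq2, 42 with the covariate, 20 without those libraries, and 45 to 116 with 1 library left out. The genotype difference in the log2 ratio of Ckmt2 to Ckm was 0.13 without those libraries and 0.10 to 0.19 with 1 library left out. For Ak4 to Ak1 this difference was −0.1025 to 0.0217 with 1 library left out. With the replicate block, 76 genes were called lower and 112 higher, and Ckb kept its call (log2 fold change 0.35, FDR = 0.0280). Whether the replicate numbers pair the samples was not tested. Correlations of same-numbered libraries were −0.13 to 0.68, and 3 of 6 WT libraries correlated best with their own number. These were replicates 1, 5 and 6, at 0.68, 0.40 and 0.51, and the correlations of replicates 2, 3 and 4 were negative.

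Uncalled members near 0 changed sign. With scaling by library size alone, which moved the median of all genes from −0.01 to 0.07, Ckm was at 0.0137, Slc6a8 at 0.0587 and Gamt at 0.02. With the sex-linked covariate Slc6a8 was at 0.0027 and Gamt at 0.0584, and without the libraries with Xist reads they were at 0.0172 and 0.0589. With 1 library left out they ranged from −0.0593 to 0.0128 and from −0.1658 to 0.0209. The cause was not tested. Gatm and Gamt have no value where cpm over 3 was required in every library.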
